A study of Mus musculus with 9 samples.

Results

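Brown fat was compared with white fat across all genes that either tissue transcribed at a measurable level. There were 3 RNA-seq libraries of each fat, all from C57BL/6J males of 3 months and wild type, and neither group carried a transgene, a deletion or a treatment. The labels count 3 mice but do not tie libraries to them, so p-values measure the spread between these libraries, which may be partly technical. The depot that the white fat was cut from is not given in the sources used here. Levels are FPKM, sequenced fragments scaled to transcript length and library size. A gene entered the comparison if it reached 1 FPKM in at least 3 of these 6 libraries, which kept 9373 of 17753 genes. Of these, 8237 averaged 1 FPKM or more in both fats, 852 had a brown fat mean below 1 FPKM and 284 had a white fat mean below 1 FPKM.

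White fat stores energy as triglyceride in adipocytes with a single large droplet and secretes hormones such as leptin and adiponectin. Brown fat holds many small droplets and dense mitochondria, and dissipates the proton gradient as heat through the uncoupling protein Ucp1 when sympathetic nerves release noradrenaline. Both depots also hold blood vessels, nerves, macrophages, fibroblast-like progenitors and matrix, and visceral white depots carry a mesothelial lining. In bulk RNA, fewer cells of a type and less RNA per cell cannot be told apart, which applies to every result given here.

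The tissue labels were checked with markers of each fat. Ucp1 was at 3386, 4108 and 3562 FPKM in brown fat replicates 1, 2 and 3, and at 7.81, 1.45 and 35.7 FPKM in the white fat replicates. Cidea, a lipid droplet protein, was at 2169.6, 2352 and 2058 FPKM in brown fat and at 7.2, 3.53 and 26.5 FPKM in white fat. Sncg, a synuclein abundant in white adipocytes, was at 10, 10.8 and 11.8 FPKM in brown fat and at 1181, 1274 and 1122 FPKM in white fat. Nnat, a small membrane protein from an imprinted locus, was at 7.26, 9.33 and 12.1 FPKM in brown fat and at 1168, 664 and 1098 FPKM in white fat. None of the 4 markers overlapped between the fats. The share of all genes without overlap was not counted. By adjusted p under 0.05 in limma alone, 39.2% of genes tested were higher in brown fat and 35.7% lower. White fat replicate 3 had the highest white fat level of both brown fat markers.

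Several libraries stood apart in genes of other tissues. White fat replicate 1 held transcripts of the seminal vesicle, a gland that lies beside abdominal fat: 11 secretion genes summed to 822 FPKM there, to 36.9 in white fat replicate 2 and to 0.776 in white fat replicate 3, against 0.435 to 0.819 in brown fat. Svs5, one of those secreted proteins, was at 285, 12.4 and 0.415 FPKM in the white fat replicates. None of these 11 genes entered the tests, and their list was chosen after the values were seen. Skeletal muscle markers summed to 97.7, 492 and 282 FPKM in brown fat and to 44, 44.4 and 62 FPKM in white fat, so brown fat replicates 2 and 3 held the most. Results on muscle genes are also given without brown fat replicates 2 and 3, where the lone brown fat library is assumed to vary like the white fat libraries.

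In total 1215 genes were higher in brown fat and 1372 were lower, at an adjusted p under 0.05 with a log2 difference of at least 1 in size. These are 13.0% and 14.6% of the genes tested, the background against which each group of genes is read. Among the 8237 genes that averaged 1 FPKM or more in both fats the shares were 12.9% higher and 9.88% lower. A gene said not to pass may have missed the fold rule alone. The median log2 difference over all genes was 0.04. FPKM sums were larger in brown fat (328326 to 343132) than in white fat (214066 to 235019), so that rescaling to TPM moved this median to -0.51, with 732 genes higher and 2694 lower, and the share of higher genes among those called fell from 47.0% to 21.4%. Moderate differences in favour of brown fat are therefore relative to the FPKM scale, and each gene group whose median changes sign under TPM is named as such. Counts of a gene group under TPM are read against 732 higher and 2694 lower of 9373 genes, not against 13.0% and 14.6%. Another 16 genes passed but were listed at 0 in all libraries of a fat. Car3, Cfd, Gsn and Lpl were listed at 0 in white fat, with brown fat means from 344 to 4010 FPKM, while Fasn was listed at 0 in brown fat. Lpl and Fasn are basic enzymes of any fat, so such a 0 can be a failed estimate, and no fold change is given for these genes.

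**Figure D1:**
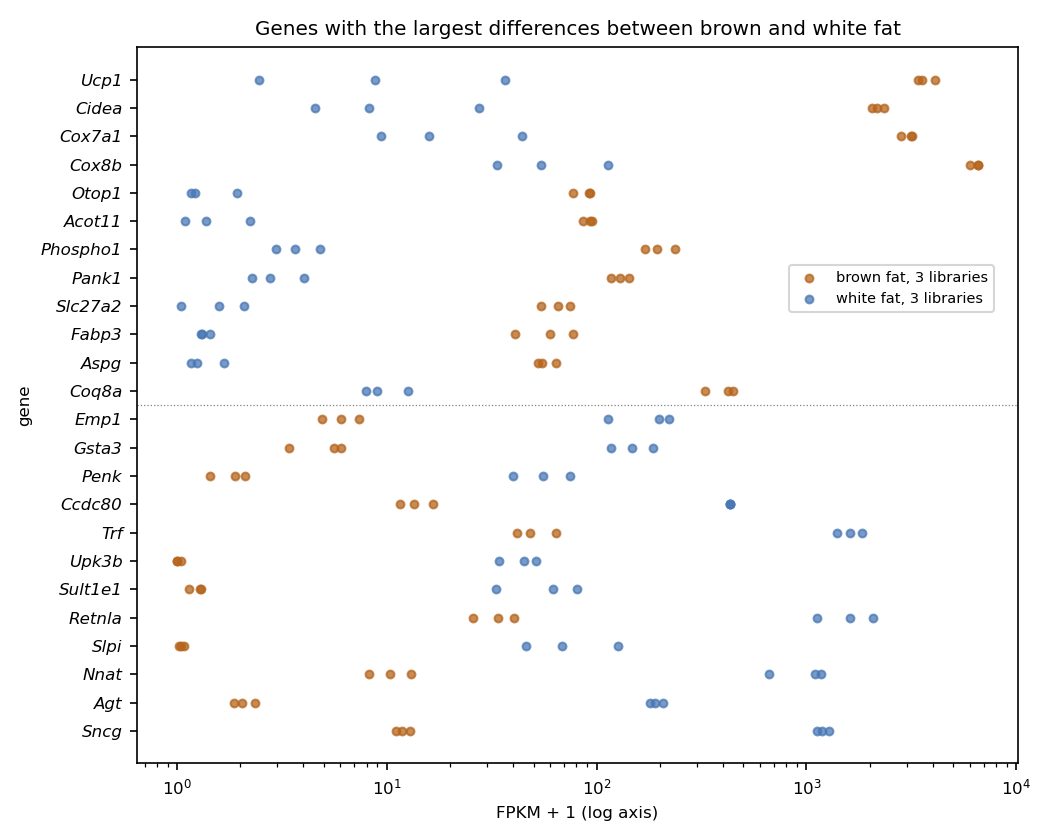
FPKM + 1 on a log axis for the 24 genes with the largest differences whose higher fat averaged 10 FPKM or more, 12 in each direction; each point is 1 library. Brown and white points do not overlap for any gene, which follows from choosing the largest differences. The white fat points of Ucp1 run from 1.45 to 35.7 FPKM.

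Beyond Ucp1, Cidea and the respiratory subunits Cox7a1 and Cox8b, the largest differences in favour of brown fat were in a proton channel, in enzymes of acyl-CoA handling and in coenzyme synthesis. Otop1, a proton-selective channel, was at 91.7, 90.8 and 76 FPKM in brown fat and at 0.217, 0.165 and 0.928 FPKM in white fat. Its log2 difference was 5.96 (SE 0.19, adjusted p = 7.8e-08, limma). Acot11, a thioesterase that cleaves fatty acyl-CoA, was at 85.4, 91.6 and 93.7 FPKM in brown fat and at 0.366, 0.0914 and 1.24 FPKM in white fat. Pank1, which starts coenzyme A synthesis from pantothenate, was at 116, 142 and 129 FPKM in brown fat and at 1.78, 1.27 and 3.01 FPKM in white fat. All 3 genes had white fat replicate 3 as their highest white fat library, as Ucp1 did.

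Phospho1, a phosphatase of phosphocholine and phosphoethanolamine, was at 235, 193 and 169 FPKM in brown fat against 1.97, 2.64 and 3.78 FPKM in white fat. Coq8a, an atypical kinase needed for coenzyme Q synthesis, had means of 397 ± 62.8 FPKM in brown fat and 8.8 ± 2.44 FPKM in white fat (SD, n = 3), a log2 difference of 5.36 (SE 0.18). Aspg, an asparaginase, had means of 55.9 ± 5.88 and 0.357 ± 0.269 FPKM. Fabp3, the fatty acid binding protein of heart and muscle, was at 39.7, 75.9 and 58.9 FPKM in brown fat and at 0.298, 0.312 and 0.437 FPKM in white fat. Its order over the brown fat libraries was that of the skeletal muscle markers, and the part of muscle RNA in this difference was not tested. Without brown fat replicates 2 and 3 the log2 difference of 5.41 became 4.92. Brown fat replicate 1 also had a higher sum of muscle markers than white fat, at 97.7 FPKM against 44, 44.4 and 62 FPKM.

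Slc27a2, a very long chain acyl-CoA synthetase and fatty acid transporter, was at 64.4, 73.8 and 53.4 FPKM in brown fat and at 0.583, 0.0423 and 1.08 FPKM in white fat, a log2 difference of 5.41 (SE 0.24). Its promoter is shown because it holds the letters AGGTCAAAG, the start of a DR1 element, the kind of repeat that PPAR and RXR receptors bind. The window runs from 250 bases before to 50 after the RefSeq start, at chr2:126552774-126553073 on the plus strand of GRCm38.p6, a newer build than the one the reads were aligned to. The capitals mark the match, which lies on the opposite strand with its first base at position -223 from the start.
Slc27a2: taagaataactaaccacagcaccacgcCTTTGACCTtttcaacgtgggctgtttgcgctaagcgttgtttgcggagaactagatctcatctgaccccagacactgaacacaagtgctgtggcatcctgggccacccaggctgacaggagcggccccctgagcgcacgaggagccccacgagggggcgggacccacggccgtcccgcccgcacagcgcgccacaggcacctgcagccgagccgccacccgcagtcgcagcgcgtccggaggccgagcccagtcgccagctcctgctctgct
The motif stood in 0.488% of all 27025 promoters of that table on either strand. It stood in 0.402% of the 7468 promoters of genes tested, in 0.605% of the 991 of genes higher in brown fat and in 0.196% of the 1023 of genes lower in brown fat. These shares are counts of letters without a test, and a match is not a binding site.

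Among the 12 genes with the largest differences in favour of white fat were several that encode secreted proteins. Agt, the precursor of angiotensin peptides, was at 1.05, 0.865 and 1.34 FPKM in brown fat and at 188, 178 and 207 FPKM in white fat (log2 difference -6.53, SE 0.10). Trf, the iron carrier transferrin, was at 47, 40.8 and 62.9 FPKM in brown fat against 1835, 1390.0 and 1617 FPKM in white fat. Ccdc80, a secreted matrix protein, was nearly equal in all white fat libraries, at 431, 429 and 429 FPKM, against 12.4, 10.5 and 15.5 FPKM in brown fat. Penk, the precursor of enkephalin peptides, had means of 0.813 ± 0.345 and 55.7 ± 17.2 FPKM. Sult1e1, the sulfotransferase that inactivates oestrogens, had means of 0.244 ± 0.0932 and 57.5 ± 23.8 FPKM. Emp1, an epithelial membrane protein, had means of 5.09 ± 1.2 and 176 ± 56.8 FPKM. Slpi and Upk3b, also among the 12 lowest, belong to the mesothelial markers described further on.

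Nnat is one of the 2 white fat markers used as a check, and its log2 difference was -6.52 (SE 0.24, adjusted p = 1.4e-07). Its promoter is shown because it holds the NRF1 letters TGCGCATGC, a motif better known from nuclear genes of mitochondrial proteins. The window is chr2:157559828-157560127 on the plus strand of GRCm38.p6, and the capitals mark the match on the opposite strand, with its first base at position -24.
Nnat: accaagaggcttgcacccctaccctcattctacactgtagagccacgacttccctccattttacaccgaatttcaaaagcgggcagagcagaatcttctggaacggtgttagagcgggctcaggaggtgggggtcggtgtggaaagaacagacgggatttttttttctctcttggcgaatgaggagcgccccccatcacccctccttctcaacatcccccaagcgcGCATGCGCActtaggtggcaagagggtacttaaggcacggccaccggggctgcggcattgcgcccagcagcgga
Over the promoters, the NRF1 letters stood in 3.64% of genes tested, in 3.43% of genes higher in brown fat and in 1.76% of genes lower in brown fat. The letters TCAAGGTCA of estrogen-related receptors stood in 0.335%, 0.807% and 0.489% of the same groups, and the CRE letters TGACGTCA in 3.59%, 3.63% and 1.66%. Base composition was not matched between the groups, and CpG-rich letters such as NRF1 and CRE depend on it.

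**Figure D2:**
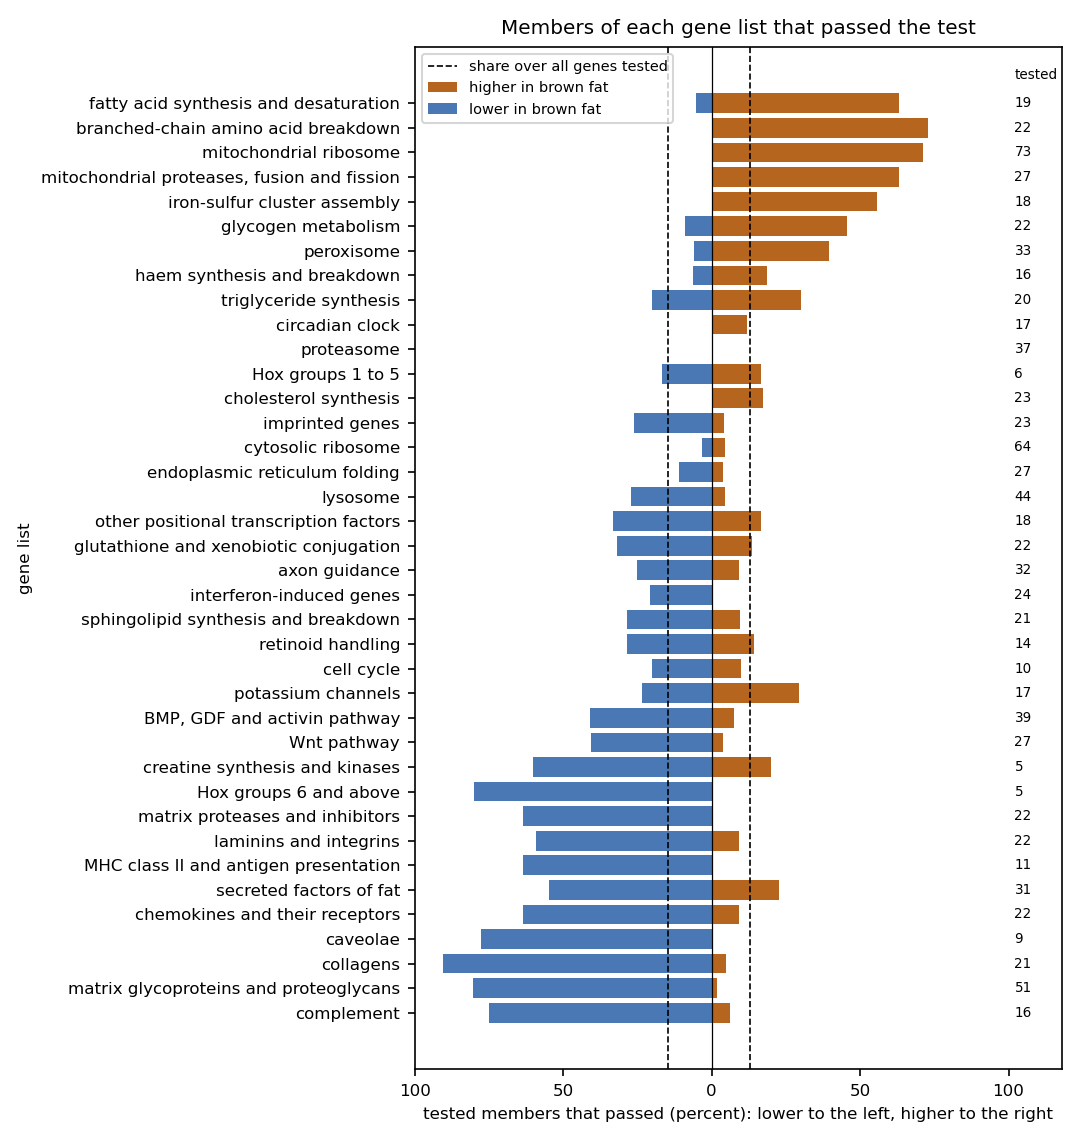
Percent of the tested members that passed in each gene list other than the cell marker lists and those chosen after their values were seen, higher in brown fat to the right and lower to the left, with the number tested at the right edge; dashed lines give 13.0% and 14.6%, the shares over all genes tested. The lists shown are ordered by median log2 difference, from fatty acid synthesis at the top to complement at the bottom.

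Enzymes that break down branched-chain amino acids were higher in brown fat for the most part. Of 22 members tested, 16 were higher and 0 lower, with a median log2 difference of 1.28. Dld, the dihydrolipoamide dehydrogenase shared by several 2-oxoacid dehydrogenases, was at 519.8, 481 and 498 FPKM in brown fat and at 86.5, 81.4 and 77.6 FPKM in white fat. Bckdha, a subunit of the branched-chain 2-oxoacid dehydrogenase, had means of 359 ± 19.2 and 85.6 ± 13.2 FPKM. The kinase and the phosphatase that switch this complex off and on, Bckdk and Ppm1k, were both higher, by 1.35 and 1.30 log2 units, as were Pcca, Pccb, Mcee and Mmut of the propionate branch. Bcat2, the transaminase of the first step, did not pass and had a log2 difference of -0.29. Under TPM the count dropped to 6 of 22, with a median of 0.74.

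Glycogen genes leaned to brown fat. Of 22 tested, 10 were higher and 2 lower (median 0.79), or 8 and 3 under TPM (median 0.22). Without brown fat replicates 2 and 3 the median was 0.67. Ppp1r3b, which targets protein phosphatase to glycogen, was at 63.3, 76.8 and 78.9 FPKM in brown fat and at 1.16, 1.59 and 1.72 FPKM in white fat, a log2 difference of 4.89 (SE 0.12). Gys2, the liver type glycogen synthase, had means of 27.9 ± 3.79 and 2.55 ± 1.5 FPKM. Among the phosphorylases, the liver form Pygl had means of 359 ± 7.73 and 67.9 ± 6.17 FPKM, while the brain form Pygb was lower, at 37.7 ± 1.08 and 102 ± 8.44 FPKM. The other lower member was Phkg1, a catalytic subunit of phosphorylase kinase, with means of 1.46 ± 0.0935 and 10.7 ± 1.65 FPKM. The muscle form Pygm, which is also a skeletal muscle marker, was higher by 1.29 and did not pass without brown fat replicates 2 and 3 (log2 difference 0.33, adjusted p = 0.12, limma). The branching enzyme Gbe1 had a log2 difference of 2.24.

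Fatty acid synthesis had the highest median of the lists outside the cell markers, 1.66, with 12 of 19 members higher, 1 lower and Fasn listed at 0 in brown fat. Under TPM 9 were higher and 3 lower (median 1.07). Elovl3, an elongase induced in brown fat by cold, was at 69.7, 18.2 and 23.3 FPKM in brown fat and at 0.114, 0 and 0.399 FPKM in white fat. Brown fat replicate 1 was the highest, and the lowest brown fat library was far above every white fat library. Acss1, the mitochondrial acetyl-CoA synthetase, had means of 93.5 ± 15.4 and 3.55 ± 0.968 FPKM. Acly, Acaca, Acacb and Elovl6, which lead from citrate to long chain acyl-CoA, were higher by 3.12, 2.45, 3.15 and 4.23 log2 units. Elovl1, the elongase of very long saturated chains, was lower, with means of 3.34 ± 0.326 and 17.6 ± 0.95 FPKM. Thrsp, a lipogenic regulator and the most abundant member measured, had means of 3627 ± 339 and 986 ± 146 FPKM and missed the fold threshold under quantile normalization, at 0.95.

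Triglyceride synthesis was mixed, with 6 of 20 members higher and 4 lower, and its median of 0.45 became -0.03 under TPM. In some enzyme families members went opposite ways. Gk, the glycerol kinase that re-uses glycerol, was at 55.9, 44.9 and 38.2 FPKM in brown fat and at 1.98, 1.59 and 2.28 FPKM in white fat. Among glycerol-phosphate acyltransferases, Gpat4 was higher by 1.33 while Gpat3 was lower, with means of 6.12 ± 1.04 and 34.7 ± 5.84 FPKM. Among the next acyltransferases, Agpat2 was higher (951 ± 61 against 207 ± 23.6 FPKM) and Agpat4 lower by a log2 difference of -1.45. Mogat1, the acyltransferase of monoacylglycerol, was lower, with means of 9.91 ± 3.59 and 37.4 ± 2.95 FPKM. Pck1, which feeds glyceroneogenesis, was at 2011, 1825 and 1752 FPKM in brown fat and at 662, 626 and 645 FPKM in white fat, and missed the fold threshold under TPM, at 0.94, and under quantile normalization, at 0.31.

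Peroxisomal genes leaned to brown fat, with 13 of 33 tested members higher and 2 lower (median 0.74), or 10 and 2 under TPM (median 0.21). A pair of acyl-CoA transporters of the peroxisome went opposite ways. Abcd3 was at 132, 123 and 119 FPKM in brown fat and at 24.8, 24.8 and 22.4 FPKM in white fat, whereas Abcd2 was at 20.6, 14.3 and 26.5 FPKM in brown fat and at 122, 125 and 107 FPKM in white fat. Phyh, the hydroxylase of phytanic acid, had means of 564 ± 14.9 and 109 ± 9.48 FPKM. Far1, which makes the fatty alcohol for ether lipids, was lower, with means of 2.73 ± 0.162 and 9.61 ± 0.27 FPKM. Cholesterol synthesis was near background: 4 of 23 were higher and 0 lower, and the median of 0.19 became -0.35 under TPM. Its leading members were Acat2, with means of 56.8 ± 3.12 and 14.1 ± 0.469 FPKM, and Insig1, with 83.6 ± 9.49 and 21.8 ± 3.65 FPKM.

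Creatine genes leaned to white fat. Of 5 tested, 3 were lower: Gamt and Gatm, the enzymes of creatine synthesis, and Ckb, the brain type creatine kinase. Gamt was at 3.52, 2.56 and 3.18 FPKM in brown fat and at 29.8, 24 and 19.9 FPKM in white fat. Ckb was at 9.66, 14.4 and 13.2 FPKM in brown fat and at 31.8, 25 and 28.1 FPKM in white fat, and its log2 difference of -1.14 became -0.98 without brown fat replicate 1, short of the fold threshold. The higher member was Ckm, the muscle kinase, at 4.87, 40.8 and 23.1 FPKM in brown fat, in the order of the skeletal muscle markers, of which it is one. Without brown fat replicates 2 and 3 its log2 difference of 4.01 became 2.38, and the list had 1 higher and 3 lower members, with a median of -1.40 in place of -1.14. Of the 3 members that averaged 1 FPKM or more in both fats, 0 were higher and 2 lower.

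Iron-sulfur cluster assembly had 10 of 18 members higher and 0 lower (median 1.03), or 5 and 1 under TPM (median 0.61). It was led by Hspa9, the mitochondrial chaperone of the pathway, with means of 499 ± 12.6 and 128 ± 4.94 FPKM. Bola3 followed, with 284 ± 20.8 and 74.5 ± 8.77 FPKM. Haem synthesis was closer to background, with 3 of 16 higher and 1 lower, and its median of 0.54 became -0.02 under TPM. Tmem14c, a protoporphyrin transporter of the inner membrane, was at 289, 298 and 288 FPKM in brown fat and at 58.5, 53.6 and 50.6 FPKM in white fat. Hmox1, which degrades haem, was the lower member, with means of 5.49 ± 3.06 and 19.4 ± 3.08 FPKM.

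Glutathione conjugation leaned to white fat, with 3 of 22 members higher and 7 lower (median -0.39). Gsta3, an alpha class glutathione transferase, was at 5.01, 2.42 and 4.58 FPKM in brown fat and at 147, 184 and 116 FPKM in white fat. Gsto1 and Gsto2, of the omega class, were higher by 1.47 and 1.41. Mgst1, the most abundant member measured, did not pass (752 ± 85.9 against 989.8 ± 43.4 FPKM). Another 10 genes of the list, Gstm1 and Gstp1 among them, had no matching row and were not analysed. Retinoid genes had 2 of 14 higher and 4 lower, but of the 8 that averaged 1 FPKM or more in both fats 0 were higher and 1 lower, so most of these calls are of members scarcely detected in a fat. The retinaldehyde dehydrogenases Aldh1a2 and Aldh1a3, which make retinoic acid, were lower. Aldh1a2 was at 0.163, 0.121 and 0.0708 FPKM in brown fat and at 8.38, 7.38 and 9.71 FPKM in white fat. Aldh1a1 had no matching row and was not analysed. The receptor Rarb was higher, with means of 6.7 ± 0.492 and 0.469 ± 0.09 FPKM, and the retinol carrier Rbp4 lower, with 76.2 ± 15.6 and 320.2 ± 37.2 FPKM. Among sphingolipid enzymes 2 of 21 were higher and 6 lower. Of the 19 that averaged 1 FPKM or more in both fats, 2 were higher and 4 lower. Another 8 genes of this list, Cers1 to Cers6 among them, had no matching row and were not analysed. Smpd3, a neutral sphingomyelinase, had means of 0.278 ± 0.0553 and 9.22 ± 1.65 FPKM, while Ormdl3, a brake on sphingolipid synthesis, was higher, with 191 ± 14.5 and 65.6 ± 7.24 FPKM.

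Ribosomal proteins were counted by compartment. Of 73 genes of the mitochondrial ribosome, 52 were higher in brown fat and 0 lower, with a median of 1.22, or 21 of 73 and a median of 0.70 under TPM. Mrpl34, of the large subunit, was at 183, 197 and 188 FPKM in brown fat and at 29.1, 20.3 and 25.2 FPKM in white fat. Mrps36, which is also described as a subunit of the 2-oxoglutarate dehydrogenase, had means of 46.1 ± 5.32 and 5.88 ± 0.801 FPKM. Of 64 genes of the cytosolic ribosome, 3 were higher and 2 lower, with a median of -0.26 that became 0.03 without white fat replicates 1 and 3. Rpl41, the most abundant of them, did not pass, at 556, 635 and 565 FPKM in brown fat and 878, 459.8 and 653 FPKM in white fat, so the white fat libraries enclosed all brown fat values. Neither of the lower members, Rpl22l1 and Rpl37a, passed without white fat replicate 1, while without white fat replicate 2 the lower members were 6 and without white fat replicate 3 there was 1. Under TPM 1 of the 64 cytosolic genes was higher and 21 were lower, with a median of -0.85. Over all 9373 genes TPM gave 732 higher and 2694 lower, with a median of -0.51. Under quantile normalization 3 of the 64 were higher and 16 lower, with a median of -0.55. Over all genes it gave 1192 higher and 1234 lower, with a median of 0.06. Ribosomal protein genes have many processed copies, so their estimates are uncertain.

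Mitochondrial proteases, chaperones and genes of fusion and fission had 17 of 27 members higher and 0 lower (median 1.22), or 9 and 0 under TPM (median 0.66). Mtfp1, a fission factor of the inner membrane, was at 30.9, 34.7 and 32.6 FPKM in brown fat and at 2.62, 1.94 and 2.1 FPKM in white fat. The fusion genes Opa1, Mfn2 and Mfn1 were higher by 1.89, 1.52 and 1.27 log2 units, so members of both processes rose. Fis1 and Dnm1l, of outer membrane fission, did not pass, at -0.14 and 0.82. Chchd3 and Immt, which shape cristae, were higher by 2.46 and 2.02.

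Proteasome genes stayed under the fold threshold. Of 37 subunits and partners, 0 were higher and 0 lower by the fold rule, with a median of 0.33 that became -0.25 under TPM, where 3 were lower. By adjusted p in limma alone, without the fold rule, 22 were higher and 3 lower, where 39.2% of all genes tested were higher and 35.7% lower by that rule. Psma6, the most abundant member, was at 170.2, 166 and 161 FPKM in brown fat and at 105, 101 and 95.7 FPKM in white fat, without overlap, and its log2 difference was 0.72 (adjusted p = 3.6e-05), under the fold threshold. Folding genes of the endoplasmic reticulum had 1 of 27 higher and 3 lower. P4hb, a protein disulfide isomerase and a subunit of collagen prolyl hydroxylase, was at 37.5, 33.2 and 31.6 FPKM in brown fat and at 147, 142 and 133 FPKM in white fat, and Sdf2l1 and Xbp1 were lower by log2 differences of -1.92 and -1.42. The higher member, Herpud1, missed the fold threshold without brown fat replicate 2 (0.86) and without white fat replicate 2 (0.97). Cell cycle genes were rarely detected, with 10 of 32 tested, 1 higher and 2 lower (1 and 0 of the 4 that averaged 1 FPKM or more in both fats); the lower ones were the replication helicase subunits Mcm6 and Mcm3, at -1.36 and -1.07, and the higher one, the centromere histone Cenpa, missed the fold threshold without white fat replicate 1.

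**Figure D3:**
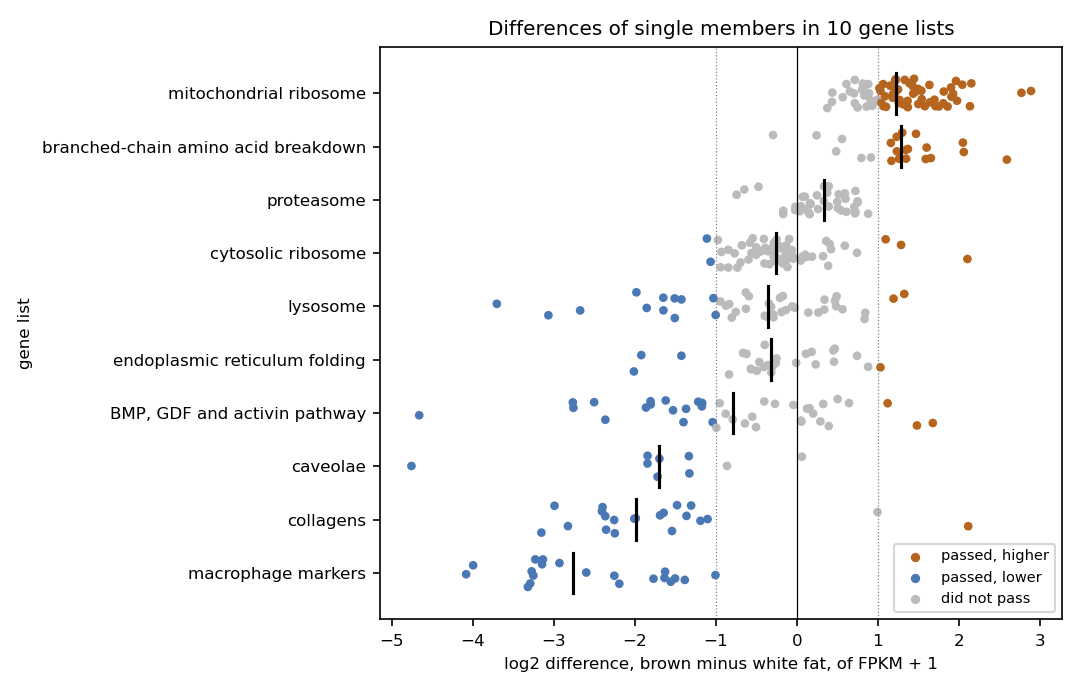
Log2 difference, brown minus white fat, of each tested member in 10 gene lists, leaving out genes listed at 0 in a fat; black bars are medians, dotted lines the fold threshold of 1, and colours show members that passed. Mitochondrial ribosome genes lie to the right of 0, proteasome genes within the dotted lines, and macrophage markers all at or to the left of the lower line.

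Lysosomal genes had 2 of 44 members higher and 12 lower (median -0.35). Without brown fat replicate 2 there was 1 higher member, since Npc1 then fell short of the fold threshold at 0.98. Of the lower ones 6 were cathepsins, proteases that digest protein in the lysosome. Ctsc was at 4.93, 4.88 and 5.04 FPKM in brown fat and at 75, 69.8 and 85.9 FPKM in white fat. Ctss, a cathepsin that macrophages use to process antigens, was at 4.09, 5.68 and 4.73 FPKM in brown fat and at 44.7, 38.5 and 62.6 FPKM in white fat. Ctsd, the most abundant member, leaned to brown fat but missed the fold threshold, with means of 673 ± 51.2 and 478 ± 28.3 FPKM. Its log2 difference was 0.49 (adjusted p = 0.0025, limma). Lipa, the lysosomal acid lipase, was higher, with means of 50.4 ± 6.32 and 19.4 ± 0.75 FPKM. Macrophage markers, described further on, were also lower in brown fat, and their part in the lysosomal genes was not tested. The promoter of Ctss is shown because it holds the letters GAGGAAGTG, bound by the myeloid factor PU.1, at chr3:95526536-95526835 on the plus strand of GRCm38.p6. The capitals mark the match on the opposite strand, with its first base at position -3.
Ctss: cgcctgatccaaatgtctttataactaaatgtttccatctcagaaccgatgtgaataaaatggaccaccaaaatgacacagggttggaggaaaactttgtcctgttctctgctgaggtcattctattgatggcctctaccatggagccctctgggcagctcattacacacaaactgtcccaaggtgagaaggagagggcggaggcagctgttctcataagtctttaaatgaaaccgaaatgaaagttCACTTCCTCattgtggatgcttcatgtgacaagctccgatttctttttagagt
These letters stood in 1.84% of all 27025 promoters and in 1.77% of those of genes tested. They stood in 1.31% of promoters of genes higher in brown fat and in 2.83% of genes lower in brown fat.

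Secreted factors divided between the fats, with 7 of 31 tested members higher in brown fat and 17 lower; 5 of the 31 are also in other lists. Of the 23 that averaged 1 FPKM or more in both fats, 5 were higher and 12 lower. Leptin (Lep) and resistin (Retn) were lower by log2 differences of -4.47 and -4.53. Adipoq, the adiponectin gene and the most abundant member, was at 1058, 1061 and 906 FPKM in brown fat and at 3067, 2573 and 2989.8 FPKM in white fat. Retnla, a resistin-like protein also made by macrophages, was at 24.7, 33 and 39.3 FPKM in brown fat and at 1616, 1118 and 2066 FPKM in white fat. Higher in brown fat was Kng2, a kininogen, the precursor of bradykinin, at 26.5, 47.1 and 63 FPKM against 0.433, 0.221 and 0.622 FPKM. Pm20d1, a secreted enzyme that makes N-acyl amino acids, had means of 10.7 ± 0.442 and 0.958 ± 0.145 FPKM. Nampt, Vegfa, Nrg4 and Fndc5 were higher by 1.77, 1.52, 1.49 and 1.28. Angptl4, an inhibitor of lipoprotein lipase, did not pass, at -0.30.

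Wnt pathway genes had 11 of 27 members lower and 1 higher. Of the 16 members that averaged 1 FPKM or more in both fats, 3 were lower and 0 higher, so most of the lower members were those scarcely detected in brown fat. Among ligands and agonists, Rspo1, an R-spondin that amplifies Wnt signals, was at 0.237, 0.157 and 0.124 FPKM in brown fat and at 15.8, 14 and 12 FPKM in white fat, and it is also a mesothelial marker here. Wnt2b had means of 0.124 ± 0.0141 and 5.61 ± 0.882 FPKM. The secreted antagonists Sfrp1, Sfrp2, Sfrp4 and Sfrp5 were lower, by log2 differences from -2.32 to -1.50. The R-spondin receptor Lgr6 was the higher member, at 3.8, 13.5 and 10.1 FPKM in brown fat and at 0.00878, 0 and 0.0656 FPKM in white fat. Ctnnb1, the effector beta-catenin, did not pass (96.5 ± 3.74 against 82.3 ± 2.65 FPKM).

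In the BMP, GDF and activin pathway 3 of 39 members were higher and 16 lower, and of the 28 that averaged 1 FPKM or more in both fats 2 were higher and 8 lower. The ligand Gdf10 had means of 2.55 ± 0.308 and 23.5 ± 5.03 FPKM, and Inhbb, a subunit of activin B, was lower by a log2 difference of -2.50. The antagonist Chrdl1 was at 1.3, 1.09 and 1.49 FPKM in brown fat and at 55.6, 55.3 and 60.2 FPKM in white fat (log2 difference -4.66, SE 0.08). Chrd, Fstl1 and Fstl3, which also bind ligands outside the cell, were lower too. The target genes Id1 and Id2 were higher, with Id2 at 17.7, 42.4 and 28.2 FPKM in brown fat and at 6.8, 6.76 and 10.8 FPKM in white fat, highest in brown fat replicate 2. Id3, the most abundant of the targets measured, did not pass, with means of 42.2 ± 9.13 and 61.9 ± 11.8 FPKM.

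Caveolae, the flask-shaped pits of the plasma membrane in which adipocytes are rich, were lower as a group: 7 of 9 members were lower and 0 higher (median -1.70), and all 9 averaged 1 FPKM or more in both fats. Cavin3, a coat protein, was at 7.73, 5.09 and 6.28 FPKM in brown fat and at 214, 214 and 166 FPKM in white fat. Cav1, the main caveolin, was at 302, 273 and 307 FPKM in brown fat and at 1105, 1109 and 963 FPKM in white fat. Cav2 had the same log2 difference as Cav1, -1.84. The other coat proteins Cavin1 and Cavin2 were both lower by a log2 difference of -1.33, against -4.76 for Cavin3.

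Potassium channels had 5 of 17 tested members higher and 4 lower, of 92 in the list. Kcnk3, a background channel that sets the resting potential, was at 96.4, 99.2 and 90.1 FPKM in brown fat and at 2.44, 2.28 and 2.7 FPKM in white fat (log2 difference 4.79, SE 0.07). The subunits Kcnj11 and Kcnj8 of channels gated by ATP were higher by 1.41 and 1.35, and Kcnj8 is also a pericyte marker. The 4 lower members were Kcnj15, Kcnab2, Kcnn4 and Kcnip3; of the 5 members that averaged 1 FPKM or more in both fats, 3 were higher and 0 lower. Clock genes were near background, with 2 of 17 higher and 0 lower, and their median of 0.37 became -0.08 under TPM. Nfil3 and Hlf, output factors of the clock, were the higher ones, with Nfil3 at 17, 14.3 and 17.9 FPKM in brown fat and at 4.85, 2.99 and 3.72 FPKM in white fat. Nr1d1, the most abundant member, did not pass, with means of 29.7 ± 5.38 and 36.1 ± 5.3 FPKM. Without brown fat replicate 1, or without white fat replicate 1, 3 clock genes were higher.

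Axon guidance genes had 3 of 32 members higher and 8 lower, and of the 25 that averaged 1 FPKM or more in both fats 3 were higher and 4 lower. Nrp2, a receptor for secreted semaphorins and for VEGF, was at 22.1, 26.3 and 26.4 FPKM in brown fat and at 2.78, 3.31 and 3.62 FPKM in white fat. Its ligands Sema3c and Sema3f went the other way, with Sema3c at 1.36 ± 0.226 and 18.1 ± 3.09 FPKM and Sema3f lower by a log2 difference of -1.40. Slit3, a repellent ligand, was at 3.26, 2.39 and 2.43 FPKM in brown fat and at 31, 30 and 37.1 FPKM in white fat.

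Hox genes are expressed in nested domains in the embryo, and adult fat depots keep different sets. Of 21 Hox genes of groups 6 and above, 5 were tested, and 4 of these were lower in brown fat and 0 higher. Of the 3 that averaged 1 FPKM or more in both fats 2 were lower; the other 2 passed the filter through white fat alone. Hoxc8 was at 1.3, 1.42 and 1.47 FPKM in brown fat and at 44.5, 38.5 and 39.9 FPKM in white fat (log2 difference -4.13, SE 0.08), and Hoxc9, Hoxb7 and Hoxa7 were lower by log2 differences of -1.54, -1.15 and -1.14. Of the 6 tested from groups 1 to 5, Hoxa4 was higher by 1.23 and Hoxb5 lower by a log2 difference of -1.50. The median of the 6 was 0.21 and became -0.32 under TPM. Of the 4 that averaged 1 FPKM or more in both fats 1 was higher and 0 lower. Hoxc5, the most abundant of these, did not pass (5.67 ± 0.912 against 5.5 ± 0.596 FPKM). Among other positional factors 3 of 18 were higher, 6 lower, and Tcf21, Wt1 and Bnc1 were listed at 0 in brown fat. Zic1 and Tbx5 were among the higher ones, by 1.52 and 1.30. Osr1 and Gata6, factors of lateral mesoderm, were lower, with Osr1 at 0.393 ± 0.119 and 11.6 ± 1.58 FPKM. Of the 7 factors that averaged 1 FPKM or more in both fats, 1 was higher and 1 lower.

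Imprinted genes, which are transcribed from a single parental copy and often act in growth, were mixed, with 1 of 23 higher and 6 lower. Of the 19 that averaged 1 FPKM or more in both fats, 1 was higher and 4 lower, with a median of 0.08. Plagl1, a zinc finger factor, was at 0.564, 0.516 and 0.5 FPKM in brown fat and at 20.7, 22.2 and 18.7 FPKM in white fat. Mest, a marker of adipocyte expansion, was lower by a log2 difference of -3.41, and Nnat, above, by -6.52. The higher gene was Gnas, whose locus encodes the stimulatory G protein of the beta-adrenergic receptors, at 1635, 3025 and 2489 FPKM in brown fat and at 449, 418 and 437 FPKM in white fat. A sum over its transcripts cannot separate imprinted from biallelic forms. The list median of -0.10 became 0.06 without white fat replicate 3.

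Most tested genes of the extracellular matrix were lower in brown fat. Of 21 collagen genes tested, 19 were lower and 1 higher (median -1.99), and of the 15 that averaged 1 FPKM or more in both fats all 15 were lower. Col3a1, the fibrillar collagen with the highest level here, was at 87.7, 66.9 and 71.7 FPKM in brown fat and at 329, 478 and 369 FPKM in white fat. The basement membrane chains Col4a1 and Col4a2 were lower by smaller amounts, log2 differences of -1.30 and -1.10, and Col18a1, the precursor of endostatin, by -2.99, with means of 2.29 ± 0.366 and 25.1 ± 1.51 FPKM. Col6a5 was at 0.021, 0.0137 and 0.0361 FPKM in brown fat and at 8.02, 6.18 and 10.7 FPKM in white fat. The higher gene was Col27a1, by 2.12.

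Of 51 matrix glycoproteins and proteoglycans, 41 were lower and 1 higher (median -2.17), and 35 of the 45 that averaged 1 FPKM or more in both fats were lower. Fn1, fibronectin, was at 5.17, 4.44 and 5.91 FPKM in brown fat and at 107, 135 and 147 FPKM in white fat. Sparc, a collagen-binding protein and the most abundant member, had means of 362 ± 33.8 and 1346 ± 230.0 FPKM. Fmod, a proteoglycan of collagen fibrils, had means of 0.215 ± 0.027 and 18 ± 4.01 FPKM. Ltbp2, a fibrillin-associated protein, went against the group, at 35.7, 38.8 and 51.5 FPKM in brown fat and at 6.36, 7.69 and 5.79 FPKM in white fat. Of 22 laminins and integrins 13 were lower and 2 higher, and of the 16 that averaged 1 FPKM or more in both fats 9 were lower and 1 higher. Itgam and Itgb2, which together form a leukocyte receptor, led the lower ones, at -2.93 and -2.74, and Itga1, a collagen receptor, was higher, with means of 12.7 ± 0.385 and 3.94 ± 0.746 FPKM. Without white fat replicate 3, 1 member of this list was higher.

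Matrix proteases and their inhibitors were lower together, 14 of 22 with 0 higher. The protease Adamts5, which cleaves aggrecan and versican, was at 1.15, 1.96 and 1.81 FPKM in brown fat and at 37, 27.4 and 37.3 FPKM in white fat. Timp4, an inhibitor of metalloproteinases, was at 20.5, 15.3 and 16.1 FPKM in brown fat and at 259, 222 and 214 FPKM in white fat. Timp2 and Mmp14 were lower by log2 differences of -3.39 and -2.04. Of the 14 members that averaged 1 FPKM or more in both fats, 8 were lower. Adipose progenitor markers, which mark fibroblast-like cells that secrete matrix, summed to 259 to 308 FPKM in brown fat and to 1353 to 1655 FPKM in white fat, and their part in the matrix genes was not tested.

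Immune genes were lower in brown fat for the most part. Complement had 12 of 16 tested members lower, 1 higher and Cfd, the adipokine adipsin, listed at 0 in white fat; of the 11 that averaged 1 FPKM or more in both fats 8 were lower and 1 higher. C6, of the membrane attack complex, had means of 0.0298 ± 0.0258 and 13 ± 4.65 FPKM. C8g was the higher member, with 6.31 ± 0.278 and 1.38 ± 0.148 FPKM, and C3 did not pass, at -0.34. Of the tested complement genes 3 are also in cell marker lists.

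Among genes of antigen presentation 7 of 11 were lower and 0 higher, and 6 of the 9 that averaged 1 FPKM or more in both fats were lower. H2-Aa, a class II chain, was at 34.2, 56.3 and 39.5 FPKM in brown fat and at 239, 217 and 358 FPKM in white fat. B2m, the light chain of class I on all nucleated cells, was also lower, at 387, 505 and 422 FPKM against 1436, 1485 and 1867 FPKM. White fat replicate 3 was the highest white fat library in both. Interferon-induced genes were closer to background, with 5 of 24 lower and 0 higher under FPKM. Of the 21 that averaged 1 FPKM or more in both fats 3 were lower. Under TPM 16 of 24 were lower, where 2694 of all 9373 genes were lower. Oasl2 had means of 0.833 ± 0.15 and 6.23 ± 0.425 FPKM, and Bst2, the most abundant member, did not pass, at -0.46.

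Of 22 chemokines and receptors 14 were lower and 2 higher, and of the 10 that averaged 1 FPKM or more in both fats 6 were lower and 1 higher. Ccl6, a chemokine of myeloid cells, was at 3.86, 4.17 and 4.51 FPKM in brown fat and at 108, 104 and 145 FPKM in white fat. The monocyte receptor Ccr2 and its ligands Ccl2 and Ccl7 were lower by log2 differences of -2.98, -2.37 and -2.16. Cxcl14 was one of the higher genes, at 10.6, 11.2 and 10.3 FPKM in brown fat and at 2.25, 2.38 and 2.13 FPKM in white fat, and Ccr10 was the other. Cxcl12, which retains cells in tissue, did not pass, at -0.12.

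**Figure D4:**
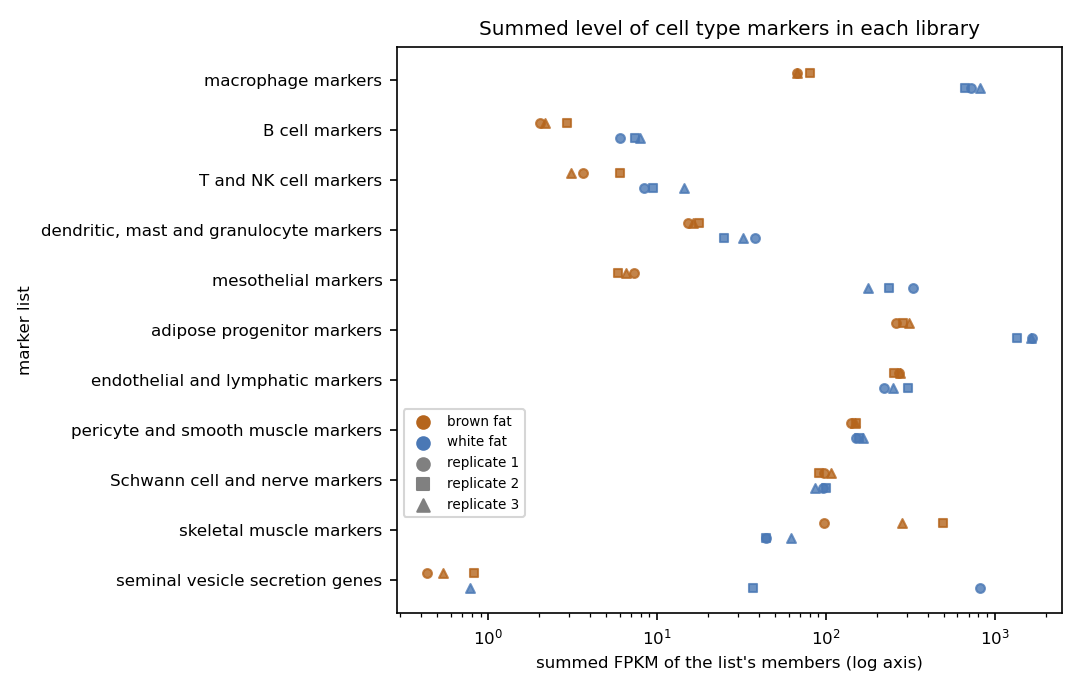
Summed FPKM of the members of each marker list in each of the 6 libraries on a log axis; colour gives the fat and symbol the replicate. Macrophage, mesothelial and progenitor markers separate the fats, endothelial markers overlap, and skeletal muscle and seminal vesicle genes differ widely between libraries of the same fat.

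Markers of the cells other than adipocytes differed by type. All 20 macrophage markers tested were lower in brown fat (median -2.77), including the 14 that averaged 1 FPKM or more in both fats, and 4 of the 20 also stand in other lists. They summed to 67.2, 80.6 and 67.7 FPKM in brown fat and to 718, 665 and 821 FPKM in white fat. Folr2, of resident macrophages, was at 2.29, 2.97 and 2.54 FPKM in brown fat and at 64.3, 50.7 and 65.9 FPKM in white fat. Lgals3, a lectin that other cells also make, had means of 1.72 ± 0.161 and 42.5 ± 3.14 FPKM. Csf1r, the receptor for the growth factor of macrophages, was lower by a log2 difference of -3.23. Without white fat replicates 1 and 3, 18 of the 20 still passed.

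Lymphocyte markers were scarce in both fats: 2 of 15 B cell markers and 3 of 21 T and NK cell markers reached the filter. Cd2, a T cell surface protein, was lower, with means of 0.31 ± 0.144 and 2.74 ± 1.09 FPKM, and passed the filter through white fat alone. Of the B cell markers 0 averaged 1 FPKM or more in both fats, and of the T and NK cell markers 1, which did not pass. Of 8 dendritic, mast cell and granulocyte markers 3 were lower, led by the dendritic lectin Cd209a with 0.509 ± 0.151 and 5.99 ± 1.24 FPKM, and of the 4 that averaged 1 FPKM or more in both fats 0 passed. Cpa3, the mast cell carboxypeptidase, did not pass (3.17 ± 0.291 against 5.99 ± 0.912 FPKM).

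Mesothelial markers were near 0 in brown fat. They summed to 7.31, 5.9 and 6.53 FPKM there and to 326, 236 and 178 FPKM in white fat. Of 16 tested, 11 were lower and 4, Lgals7, Wt1, Krt8 and Bnc1, were listed at 0 in brown fat, while 14 of the 16 had a brown fat mean below 1 FPKM and so passed the filter through white fat alone. Upk3b, a membrane protein of mesothelium, was at 0, 0.0406 and 0 FPKM in brown fat and at 50.1, 43.9 and 33.2 FPKM in white fat. Slpi, a secreted protease inhibitor, was at 0.024, 0.0833 and 0.0439 FPKM in brown fat and at 126, 67 and 44.9 FPKM in white fat. White fat replicate 1, which held the seminal vesicle genes, was also the highest in Slpi and in the mesothelial sum; without replicates 1 and 3, 12 of the 16 were lower. Of 20 epithelial and epididymal markers 0 reached the filter, with sums from 1.56 to 7.35 FPKM in white fat.

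Adipose progenitor markers had 17 of 21 members lower and 1 higher (median -2.01); 7 of the 21 also stand in other lists, matrix genes among them. Dcn, decorin, was at 84.5, 99.5 and 111 FPKM in brown fat and at 819, 621 and 798 FPKM in white fat. Pdgfra and Cd34, surface proteins of these cells, were lower by log2 differences of -2.13 and -2.20, and Pdgfrb did not pass, at 0.32. Ebf2, a factor that marks brown fat precursors and brown adipocytes, was the higher member, with means of 20.6 ± 1.39 and 8.72 ± 1.03 FPKM.

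Vascular markers were near background. Endothelial and lymphatic markers summed to 252 to 274 FPKM in brown fat and to 219 to 304 FPKM in white fat, and 3 of 23 were higher and 2 lower, with a median of 0.17 that became -0.35 under TPM and -0.11 without white fat replicates 1 and 3. The receptors for VEGF rose: Kdr was at 18.2, 20.5 and 19.5 FPKM in brown fat and at 4.77, 7.62 and 6.13 FPKM in white fat, and Flt1 was higher by 1.42. The lymphatic markers Lyve1 and Pdpn were lower, and other cells share them: Lyve1 also marks resident macrophages and Pdpn mesothelium. Lyve1 was at 1.67, 0.898 and 1.04 FPKM in brown fat and at 31.5, 40.9 and 29.3 FPKM in white fat.

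Pericyte and smooth muscle markers had 4 of 12 members higher and 3 lower, and all 12 averaged 1 FPKM or more in both fats. Among the higher ones were the pericyte genes Cspg4 and Rgs5: Cspg4 was at 12.5, 13.7 and 13.3 FPKM in brown fat and at 2.11, 2.37 and 1.78 FPKM in white fat. The contractile genes Mylk, Synpo2 and Acta2 were lower, with Mylk at 7.94, 7.17 and 8.36 FPKM in brown fat and at 45.2, 56.2 and 50.6 FPKM in white fat. The list's median of 0.13 became -0.39 under TPM and -0.02 without brown fat replicate 1. Of 6 Schwann cell and nerve markers 1 was higher and 3 lower, and of the 3 that averaged 1 FPKM or more in both fats 2 were lower. The higher one, S100b, a calcium binding protein of glia that brown adipocytes also make, was at 52.9, 48.7 and 59.4 FPKM in brown fat and at 0.367, 0.289 and 0.899 FPKM in white fat.

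Skeletal muscle markers were higher in 12 of 15 tested, with 0 lower, but 9 of the 15 had a white fat mean below 1 FPKM and so passed the filter through brown fat alone. Of the 5 that averaged 1 FPKM or more in both fats 3 were higher. The brown fat libraries ranged in their sum from 97.7 to 492 FPKM. Tnnt3, fast troponin T, was at 5.52, 49.8 and 26.8 FPKM in brown fat and at 0.0809, 0.281 and 0.567 FPKM in white fat. Acta1, skeletal actin, did not pass, at 7.91, 61.5 and 32.8 FPKM in brown fat and at 16.7, 16.9 and 34.6 FPKM in white fat. Without brown fat replicates 2 and 3, 10 of 15 were higher and 2 lower. Ckm and Pygm, named with creatine and glycogen above, belong to this list.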

How the data were processed

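RNA-seq of 3 brown and 3 white fat libraries was used; 3 soleus libraries entered 1 alternative. The authors deposited FPKM values in 18401 rows named by RefSeq accessions, made with TopHat 1.4.1 and Cufflinks 2.0.1 on mm9, per the submitters' processing notes. RNA was taken up in TRIzol and made into libraries with Illumina's TruSeq RNA kit, version 2, per the labels' protocols. Rows were named from a RefSeq table (18305) or GENCODE (38) and summed per symbol; 55 rows without a symbol and 3 with several were left out. The values do not give the read totals, so depth in reads is unknown; 8558 to 9305 genes reached 1 FPKM per library. Multi-copy genes are uncertain, and an exact 0 can be a failed estimate.

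log2(FPKM + 1) was fitted in limma 3.58.1 (R 4.3.3) with a variance trend and 4 residual degrees of freedom, two-sided, with Benjamini-Hochberg adjustment over 9373 genes. Fold changes understate low genes. On simulated data with 9074 genes and normal noise it recovered 98% of changes of 1.5 and 100% of changes of 2.5 log2 units, with 0 false calls. Changes were planted in 100 genes per size, all with a mean log2(FPKM + 1) above 2.5. These rates therefore do not cover genes of lower level, and fewer genes changed there than passed here. Members, lists and motifs were chosen with earlier results of these data known, and 4 lists after these values were seen. Named were the 12 largest differences per direction where the higher fat averaged 10 FPKM or more, per list up to 2 called members per direction with at least 5 FPKM and the most abundant, the 4 markers and genes listed at 0; others were named after their values were seen. A few genes this rule selects are not reported here. List medians leave out genes listed at 0. Promoters are RefSeq's on GRCm38.p6. Some list genes had no matching row and were not analysed here. They were 12 in the interferon list, 10 in glutathione conjugation and 8 each in the sphingolipid and complement lists. Antigen presentation and skeletal muscle lacked 7 each, and other lists fewer. The most abundant member of a list is the most abundant of those measured.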

Additional observations from a re-analysis of the deposited data

How the results depend on the processing

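The counts of 1215 higher and 1372 lower genes were recomputed under 20 alternatives, 2 of them added after seeing the data. No called gene turned direction in any of them. With a pseudocount of 5 the counts were 769 and 626, and with a filter of 5 FPKM 851 genes were lower. Under TPM they were 732 and 2694, and under upper quartile scaling, which left the counts within 1.5 times, 39.8% of calls were higher. Leaving out 1 library gave 1180 to 1257 higher and 1359 to 1390 lower genes; without white fat replicates 1 and 3 they were 1255 and 1324, and without brown fat replicates 2 and 3 1203 and 1403, with the lone library of a fat assumed to vary like the other fat. Of 157 named genes that passed, 125 did so in every alternative that tested them, 25 missed the fold threshold with a pseudocount of 5 and 13 under TPM, and 8 without some single library. These 157 are genes chosen by the naming rule, which favours large differences, and genes named after their values were seen are not counted. Leaving out 1 library also moved counts of 1 or 2 members by 1 in several lists. Among them were fatty acid synthesis, folding, clock, Wnt, imprinted, collagen, lysosomal, cell cycle, and laminin and integrin genes.

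Deviations of brown and white libraries with the same replicate number correlated at -0.06, -0.22 and 0.09, so the numbers were not taken to pair the samples. With the replicate number as a block the log2 differences cannot change in this balanced design, so no call could turn. The counts stayed 1215 and 1372. By adjusted p under 0.05 in limma alone, the higher genes went from 3671 to 3519 and the lower ones from 3343 to 3253. Depth in reads was not known, which limits what can be said of genes near 0 in a fat.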

Other observations

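Serine synthesis went against the mitochondrial groups at its first steps; this list was chosen after its values were seen and has no test of its own. Phgdh, which draws 3-phosphoglycerate into the pathway, was at 1.78, 2.56 and 2.72 FPKM in brown fat and at 68.3, 52.4 and 54.2 FPKM in white fat, a log2 difference of -4.15. Psat1, the next enzyme, was at 2.02, 1.66 and 2.25 FPKM in brown fat and at 67, 63.1 and 54.8 FPKM in white fat. Psph, the last enzyme, was higher in brown fat, at 22.3, 22.1 and 22.2 FPKM against 11.5, 9.02 and 8.32 FPKM. Shmt1, which exchanges serine and glycine in the cytosol, was higher by 2.59, and Gpt2, the mitochondrial alanine transaminase, was lower by a log2 difference of -3.85. Of 18 tested genes of serine and one-carbon metabolism 5 were higher and 5 lower, and the median of 0.07 became -0.50 under TPM and -0.07 under upper quartile scaling.

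Nuclear receptors of the NR4A family, immediate early genes that respond to adrenergic signals, were higher in brown fat; the list was also chosen after its values were seen. Nr4a1 was at 46.7, 172.8 and 143 FPKM in brown fat and at 2.88, 1.45 and 2.72 FPKM in white fat. Nr4a2 and Nr4a3 were higher by 3.23 and 2.10. Over the brown fat libraries Nr4a1 and the sum of the immediate early genes (162, 408 and 302 FPKM) had the order of the skeletal muscle markers (97.7, 492 and 282 FPKM), and the part of this in the difference was not tested. Without brown fat replicates 2 and 3 the log2 differences of Nr4a1, Nr4a2 and Nr4a3 were 3.86, 2.54 and 1.82. Of 21 tested immediate early genes 5 were higher and 0 lower, and without brown fat replicate 2 3 were lower. Their median of 0.06 became -0.51 under TPM, where 3 were lower, -0.07 under upper quartile scaling, and -0.27 without brown fat replicates 2 and 3. Egr1, at 0.878, 21.7 and 3.69 FPKM in brown fat and 3.82, 5.12 and 6.98 FPKM in white fat, did not pass and was highest in brown fat replicate 2.

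Brown fat replicate 1 stood apart in heat shock chaperones, which summed to 1138 FPKM there, to 713 in each other brown fat library and to 549 to 629 in white fat. Hspa1a was at 23, 2.96 and 2.16 FPKM in brown fat and at 0.801, 1.31 and 0.797 FPKM in white fat. Of 17 tested chaperones 5 were higher and 3 lower, and without brown fat replicate 1 2 were higher. Several small RNA genes were high in single libraries, such as Snora69 at 64.1 FPKM in brown fat replicate 3 and Snora70 at 51.1 FPKM in white fat replicate 2.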
